A study of Hordeum vulgare with 12 samples.

Results

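The barley small RNA families described here are miR894, miR5368, miR8175 and miR9777, whose reads carry names of miRBase entries from other plants. A sequence was taken as a member when every part of its miRBase name was MIR894, MIR5368, MIR8175 or MIR9777, in any case. The rule found 127 of the 6279 distinct sequences with a miRBase match: 104 of 3812 in root and 87 of 4430 in shoot, with 64 in both organs. MIR894 held 13 sequences with 36977 reads, MIR5368 31 with 3224, MIR8175 40 with 24970 and MIR9777 43 with 686, and no sequence carried one of the 4 names jointly with another family. The members made up between 0.356% and 5.28% of the miRBase reads of a library.

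The small RNA libraries were made from root and shoot of the barley line Rolap, 12 libraries in 4 groups of 3. Low-Pi plants grew in soil with 8 mg of P per kg, and control plants grew in that soil with 60 mg of P per kg added as KH2PO4. Plants were harvested at day 23. Per the study's methods a replicate was 1 pot with 3 plants, so the spread behind each p-value is that between pots.

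In plants, miRNAs are cut from hairpin precursors by Dicer-like enzymes and loaded into Argonaute proteins, and they usually have exact ends, above all at the 5′ end. Abundant structural RNAs such as tRNA and rRNA also shed short pieces, and entries in miRBase that rest on sequencing alone can be such pieces. Mature tRNAs end in CCA, a trinucleotide that an enzyme adds after transcription. The 4 families are grouped under the name of structural RNA, but no tRNA or rRNA sequence was used here, so that origin was not tested.

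The miRBase mature sequences found among the reads are shown because the barley reads are numbered against them. Each runs 5′ to 3′ as DNA letters in the deposited tables, with the seed (bases 2 to 8) in capitals. The entries come from Physcomitrella patens (miR894), Glycine max (miR5368), Arabidopsis thaliana (miR8175) and Triticum aestivum (miR9777).
miR894: cGTTTCACgtcgggttcacc
miR5368: gGACAGTCtcaggtagaca
miR8175: gATCCCCGgcaacggcgcca
miR9777: aGCAAACAtatctgagcaca
The 4 seeds differ from each other, and none of the 268 exact mature sequences in the tables shared a seed with another family's member. Few member reads had the mature sequence itself. It took 920 reads over the 12 libraries for miR8175, in all 12 libraries, but 28 reads in 8 libraries for miR5368, 11 reads in 7 libraries for miR894 and 3 reads in 2 libraries for miR9777. Since forms began at different bases, the letters at bases 2 to 8 varied too: the mature seed was at that place in 7.53% of miR8175 reads, 5.68% of miR894 reads, 1.36% of miR5368 reads and 0.583% of miR9777 reads.

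Most reads were other forms. The 4 most abundant forms took 93.5% of the miR894 reads, 77.3% of miR5368, 86.6% of miR8175 and 61.7% of miR9777, and 1, 6, 6 and 14 sequences of these families had a single read. The 4 most abundant forms of miR894 and miR8175 are printed with the last 3 bases in capitals, because the forms differ from each other at both ends. The form name gives its first base, counted from base 1 of the mature sequence, and base 0 is the base directly before it.
miR894 from base 4, 18 nt: ttcacgtcgggttcaCCA
miR894 from base 3, 19 nt: tttcacgtcgggttcaCCA
miR894 from base 2, 20 nt: gtttcacgtcgggttcaCCA
miR894 from base 3, 18 nt: tttcacgtcgggttcACC
miR8175 from base 3, 18 nt: tccccggcaacggcgCCA
miR8175 from base 2, 19 nt: atccccggcaacggcgCCA
miR8175 from base 2, 18 nt: atccccggcaacggcGCC
miR8175 from base 0, 21 nt: cgatccccggcaacggcgCCA
All 13 miR894 sequences joined by exact overlaps of at least 15 bases into 1 stretch of 23 bases, and all 40 miR8175 sequences joined into 1 stretch of 28 bases. The mature miR894 entry ends in ACC, and the 4 miR894 forms shown end 1 base beyond it or level with it. Reads were matched without mismatches, so the CCA letters of these forms are part of the matched miRBase entries. Both stretches run on past CCA with further A bases, held by few reads.

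The reads of miR5368 and miR9777 fell on separate stretches. For these families the 2 leading forms of the main stretches are shown, again with the last 3 bases in capitals.
miR5368, precursor stretch, 19 nt: cctgggattggctttgGGC
miR5368, mature stretch from base -1, 19 nt: agggacagtctcaggtAGA
miR9777, precursor stretch, 19 nt: ctcttgtacgagaagcGCC
miR9777, mature stretch from base 3, 18 nt: caaacatatctgagcACA
In miR5368, 21 sequences with 1785 shoot and 43 root reads lay over the mature sequence, 8 sequences with 1361 shoot and 33 root reads lay on another part of the precursor, and 2 further sequences had 1 read each. In miR9777 the largest stretch, of 24 sequences, held 480 of the family's 623 root reads and did not contain the mature sequence. The stretch with the mature miR9777 sequence held 44 root reads and 30 shoot reads, and another precursor stretch held 99 and 15. The mature stretch was thus 7.80% and 5.17% of the miR9777 reads in low-Pi and control root, and 51.2% and 40.9% in low-Pi and control shoot, where few reads stood behind it.

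Of the 127 member sequences, 12 (9.45%) ended in CCA, against 99 of the 6152 other miRBase sequences (1.61%). All 12 belonged to miR894 and miR8175. They end at base 21 of miR894 or at base 20 of miR8175, so they are overlapping forms with 1 such end per family. The mature miR8175 entry itself ends in CCA. Counted by reads, the CCA end was on 74.9% of miR894 reads in low-Pi root, 72.4% in control root, 99.0% in low-Pi shoot and 97.7% in control shoot. For miR8175 it was on 85.7%, 79.8%, 93.6% and 93.5% of the reads in the same order. No sequence of miR5368 or miR9777 had this end. Of the reads of all other miRBase sequences, 1.06%, 0.680%, 0.311% and 0.255% had it, in the same order of groups.

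The letters GTTCGANNC, a core of the B box inside tRNA genes that becomes the T loop of the tRNA, were searched on the strand of the reads. They were in 20 of the 40 miR8175 sequences, those that begin at base -3 or further upstream, and in none of the other 3 families. Among the other miRBase sequences 6 of 6152 held them (0.0975%), and on the opposite strand 1 of all 6279 did. A match of these letters is a description of the sequence only. In reads, the miR8175 forms with the letters were 0.337% of the family in root under low Pi and 0.861% in root of controls, against 19.9% in low-Pi shoot and 20.05% in control shoot.

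No sequence outside the families overlapped them. None of the other 6152 miRBase sequences shared a run of 15 bases with a member stretch. None of the 1796 root and 199 shoot sequences that the authors deposited as changed without a miRBase match shared a run of 14 bases.

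The families differed widely in level and ranked differently in root and shoot. The unit throughout is RPM, reads in 1000000 kept reads, which the authors computed from reads of 18 to 25 nt. Library totals ran from 7470998 to 17614581 kept reads, so that 3 reads stood for 0.170 to 0.402 RPM. Reads with a miRBase match were 0.940% to 1.91% of a root library and 5.01% to 6.39% of a shoot library, and the low-Pi root libraries had the lowest shares. Shoot low-Pi replicate 6 stood apart from replicates 4 and 5 over all miRBase sequences (chi-square per degree of freedom 130 and 158, against 7.44 to 44.7 for other replicate pairs). It was also the lowest shoot library for miR894, miR5368 and miR8175, so values with and without it are given where it matters. miR399 and miR827, which plants raise when Pi is short, were called higher under low Pi in both organs.

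miR894 was abundant in every library. In low-Pi root its sum was 251, 169 and 220 RPM (213 ± 41.2, SD, n = 3), and in control root 306, 224 and 199 RPM (243 ± 55.8). In shoot it was 353, 330 and 155 RPM under low Pi (279 ± 108) and 232, 284 and 256 RPM in control (257 ± 26.1). The ranges of all 4 groups overlapped. It ranked 8 among families in both root groups, 16 in low-Pi shoot and 12 in control shoot.

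miR8175 was the family with the most reads in root among the 4 when Pi was low. Its sum was 341, 217 and 409 RPM in low-Pi root (323 ± 97.3, SD, n = 3) and 185, 176 and 320 RPM in control root (227 ± 80.4). In shoot it was 78.8, 64.2 and 29.1 RPM under low Pi (57.3 ± 25.6) and 45.5, 50.4 and 42.6 RPM in control (46.2 ± 3.93). All 6 root libraries were above all 6 shoot libraries, and within an organ the Pi groups overlapped.

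miR5368 was a shoot family. Its sum was 49.9, 52.1 and 22.8 RPM in low-Pi shoot (41.6 ± 16.3, SD, n = 3) and 33.8, 53.2 and 41.1 RPM in control shoot (42.7 ± 9.83). In root it was 0.800, 0.738 and 0.995 RPM under low Pi (0.844 ± 0.134) and 0.700, 1.73 and 1.87 RPM in control (1.43 ± 0.641). The root values rest on 76 reads in all, the shoot values on 3148.

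By its sum miR9777 was a root family of low level, but its mature stretch overlapped between the organs. That stretch had means of 0.731 and 0.335 RPM in low-Pi and control root, and 0.568 and 0.237 in shoot. The largest stretch, without the mature sequence, had 7.16 and 4.94 RPM in root and 0.314 and 0.164 in shoot. The family sum was 9.67, 9.99 and 8.49 RPM in low-Pi root (9.38 ± 0.789, SD, n = 3) and 7.17, 4.08 and 7.90 RPM in control root (6.38 ± 2.03). In shoot it was 0.819, 1.56 and 0.946 RPM under low Pi (1.11 ± 0.397) and 0.671, 0.653 and 0.470 RPM in control (0.598 ± 0.111). In each organ the low-Pi libraries lay above the control libraries without overlap, with 63 reads behind the shoot values. Groups lay apart in this direction for 13.2% of the 53 families tested in root and 15.4% of the 65 tested in shoot, and in the other direction for 24.5% and 9.23%.

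**Figure D1:**
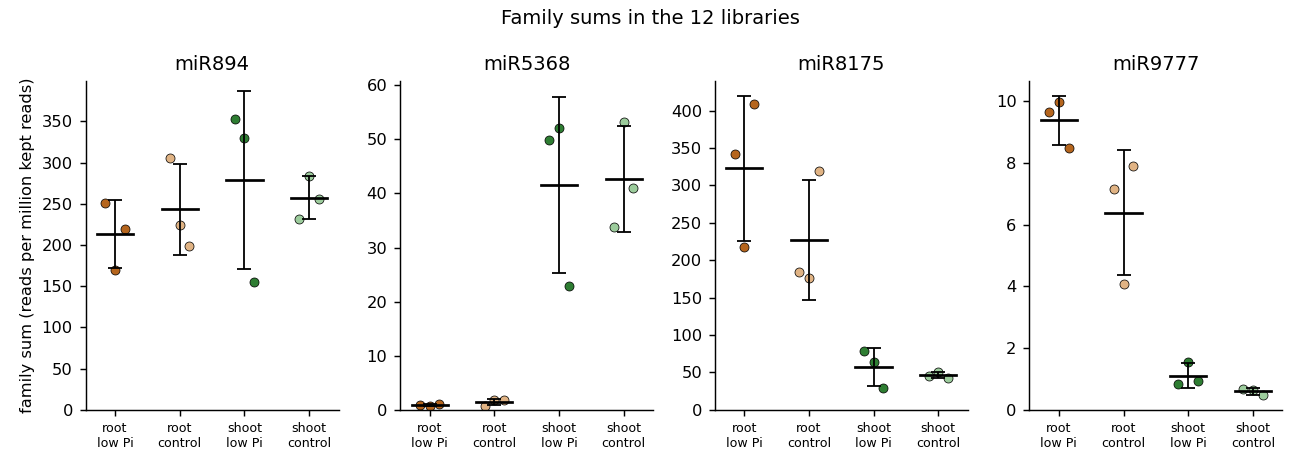
Family sums in RPM (y axis, linear from 0, own scale per panel) in the 4 organ and Pi groups (x axis); points are libraries in the order of their replicate numbers, long bars the mean and whiskers the SD of 3. miR5368 stays under 1.88 RPM in root, miR8175 and miR9777 are higher in all root than in all shoot libraries, and the miR894 groups overlap.

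Root and shoot were compared in 1 edgeR quasi-likelihood fit over the 12 libraries, to learn which of the families differ between organs. miR5368 was 30.6 times higher in shoot under control Pi (log2 root minus shoot -4.93 ± 0.43, SE, adjusted p = 9.16e-10) and 48.9 times higher under low Pi (-5.61 ± 0.44, adjusted p = 5.98e-11). miR8175 was higher in root, 4.91 times in control (log2 2.30 ± 0.34, adjusted p = 2.43e-06) and 5.62 times under low Pi (2.49 ± 0.35, adjusted p = 5.82e-07). The miR9777 sum was higher in root as well, 10.4 times in control (3.38 ± 0.42, adjusted p = 2.01e-07) and 8.43 times under low Pi (3.08 ± 0.39, adjusted p = 1.33e-07). Its mature stretch alone was not tested. These 3 calls were made in both conditions, with all root libraries on one side of all shoot libraries. Of the 81 families tested, 24.7% were called higher and 66.7% lower in root under control Pi, and 24.7% and 71.6% under low Pi, so a call between organs was common. Libraries of the 2 organs did not overlap for 25.9% higher and 69.1% lower families in control.

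For miR894 no difference between organs was called on this scale (log2 -0.08 ± 0.29, adjusted p = 0.79 in control, and -0.39 ± 0.29, adjusted p = 0.19 under low Pi). The median family lay at -1.96 in control and -2.62 under low Pi. With scalings that move this median towards 0, miR894 was called higher in root: log2 1.43 and 1.93 with TMM factors, 1.71 and 1.84 per miRBase read, in control and low Pi. Without shoot low-Pi replicate 6 it was called lower in root under low Pi (-0.68, adjusted p = 0.017). The direction of miR894 between organs thus depended on the scale. The calls of the other 3 families were made under every scaling, both tools and every omission of 1 library that was run, but their sizes moved. In control, log2 values with TMM factors, per miRBase read and with DESeq2 were -3.45, -3.12 and -2.90 for miR5368, 3.79, 4.11 and 4.35 for miR8175, and 4.89, 5.17 and 5.54 for miR9777. Under low Pi they were -3.29, -3.37 and -3.01 for miR5368, 4.81, 4.70 and 5.09 for miR8175, and 5.41, 5.36 and 5.74 for miR9777. On these scales miR5368 differed less between organs than on library totals, and miR8175 and miR9777 more.

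The interaction of organ and Pi, which asks whether the low-Pi change differs between root and shoot, was called for 0 of the 4 families (adjusted p from 0.51 to 0.82), also with DESeq2, and 0 of 4 had an unadjusted p under 0.05. Over all 81 families 16.0% were called lower and 0.0% higher.

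The forms behind these sums differed between organs. In miR894, reads from base 3 were 55.3% ± 4.65 of the family in root under low Pi and 55.5% ± 3.16 in root of controls, against 25.5% ± 1.44 and 27.9% ± 0.907 in shoot (SD, n = 3 each). Reads from base 4, most of them in the 18-nt form shown, were 30.5% ± 3.35 and 26.1% ± 4.93 in root and 50.7% ± 10.6 and 46.9% ± 1.79 in shoot. The 6 root libraries and the 6 shoot libraries did not overlap in either share. Shares by first base were not computed for families outside the 4, so whether this is particular to miR894 was not tested. A sequence that began further in and kept the same 3′ end would fall under the minimum length of 18 nt and could not be seen.

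In miR8175 the shoot reads reached further upstream, again without values of other families beside it. Forms that begin before base 1 were 44.1% ± 6.08 of the reads in low-Pi shoot and 40.1% ± 6.08 in control shoot, against 3.07% ± 0.445 and 5.63% ± 1.27 in root (SD, n = 3 each). Forms of 22 to 25 nt were 28.8% ± 7.88 and 27.0% ± 4.27 in shoot and 0.426% ± 0.0304 and 1.41% ± 0.908 in root. Forms from base 3 led in every library, with 64.7% to 69.5% of the reads in low-Pi root, 48.9% to 60.8% in control root, 34.3% to 37.0% in low-Pi shoot and 32.4% to 47.0% in control shoot. In miR5368 the mature stretch held 53.7% to 59.6% of the reads pooled over a group. In root this rests on 22 reads of the stretch under low Pi and 21 in control. A root library had 8 to 15 reads of the family. On that stretch 79.6% ± 4.45 of the low-Pi and 85.8% ± 0.652 of the control shoot reads began at base -1.

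**Figure D2:**
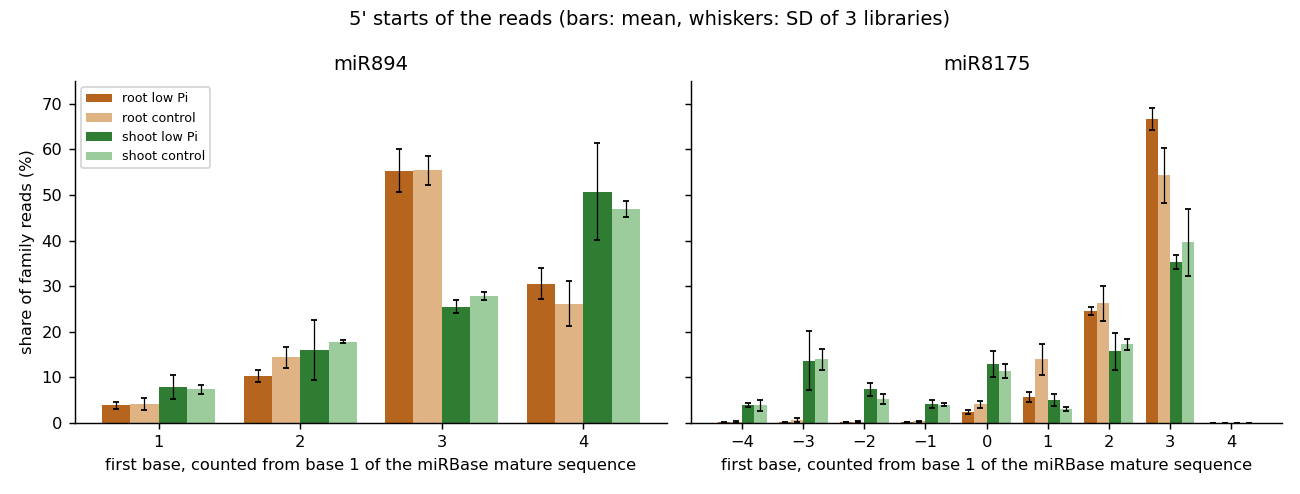
Share of family reads in percent (y axis) by first base relative to base 1 of the mature sequence (x axis), for miR894 and miR8175; bars are the mean of 3 libraries of a group and whiskers the SD. miR894 peaks at base 3 in root and at base 4 in shoot, and only shoot has a sizeable share of miR8175 reads from base -4 to base -1.

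The levels of the leading forms are given by group. The base-4 form of miR894 had a mean of 66.0 ± 19.4 RPM in root under low Pi and 62.5 ± 11.5 in control, against 149 ± 77.4 and 121 ± 10.1 in shoot (SD, n = 3 each), and shoot low-Pi replicate 6 was its lowest shoot library at 59.7 RPM. The 19-nt form from base 3 had 66.3 ± 10.8, 75.5 ± 15.4, 68.1 ± 25.7 and 66.8 ± 8.35 RPM in the same order of groups. The 18-nt form from base 3, 1 base shorter, had 50.5 ± 5.61 and 60.3 ± 23.9 RPM in root and 2.21 ± 0.824 and 4.86 ± 0.521 in shoot. The 18-nt form of miR8175 from base 3 had 214 ± 57.9 and 123 ± 42.1 RPM in root and 20.4 ± 9.66 and 18.1 ± 1.85 in shoot. The 21-nt form of miR8175 from base 0 had means of 7.15, 7.85, 7.33 and 5.12 RPM. The precursor form of miR5368 had 11.6 and 13.03 RPM in shoot and 0.291 and 0.386 in root, and that of miR9777 had 2.86 ± 0.920 and 2.44 ± 1.01 RPM in root and 0.233 and 0.0745 in shoot.

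The 3′ ends differed between the organs too. The comparison takes pairs of sequences with the same first base, of which one is 1 base shorter at the 3′ end, so that both are inside the length window. In miR894 from base 3, the shorter form (18 nt, ending in ACC) was 42.8%, 46.8% and 40.6% of both forms in low-Pi root, and 48.5%, 42.1% and 40.1% in control root. In shoot it was 2.67%, 1.65% and 7.03% under low Pi and 8.16%, 5.37% and 7.11% in control. Every root value was above every shoot value, and the Pi groups overlapped within each organ.

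The same held in miR8175 from base 2, where the shorter form ended in GCC. It took 38.2%, 49.4% and 44.8% of both forms in root under low Pi and 38.0%, 42.7% and 39.3% in root of controls, against 9.18%, 3.45% and 6.90% in low-Pi shoot and 11.6%, 8.33% and 8.33% in control shoot. At the other first bases where both forms together had at least 20 reads in each library, the shorter form was rarer. In miR894 from base 2 its mean was 6.88% and 11.7% in low-Pi and control root, against 1.38% and 1.74% in shoot. In miR8175 from base 0 it was 10.5% and 16.6% in root against 1.44% and 1.84% in shoot, and in miR894 from base 1 all 12 values were under 2.45%. In these 5 pairs the longer form ends in CCA. A further 3 member pairs, with longer forms of another end, had the shorter form at or near 100% in the groups. Of all 8 member pairs with at least 20 reads in each library, the root libraries lay above the shoot libraries without overlap in 4, each with a CCA end. Among 198 pairs of other miRBase sequences with at least 20 reads in each library, 16.7% lay higher in root and 4.55% lower in this way, and of the 6 of them with a CCA end 3 lay higher. The median share of the shorter form in the 198 pairs was 94.3% in control root and 93.7% in control shoot, so that most are unlike the 5 pairs in level. The miR8175 pair from base 1, whose longer form also ends in CCA, fell under 20 reads in some shoot libraries and is not among the 8. There the shorter form was not rare in root. It had 134, 92 and 179 reads in low-Pi root against 166, 71 and 199 of the longer form. In control root it had 204, 89 and 183 against 147, 58 and 138. In shoot it had 4, 4 and 2 against 57, 22 and 17 under low Pi, and 2, 1 and 2 against 17, 19 and 9 in control. The shares are given as a description, with no test.

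**Figure D3:**
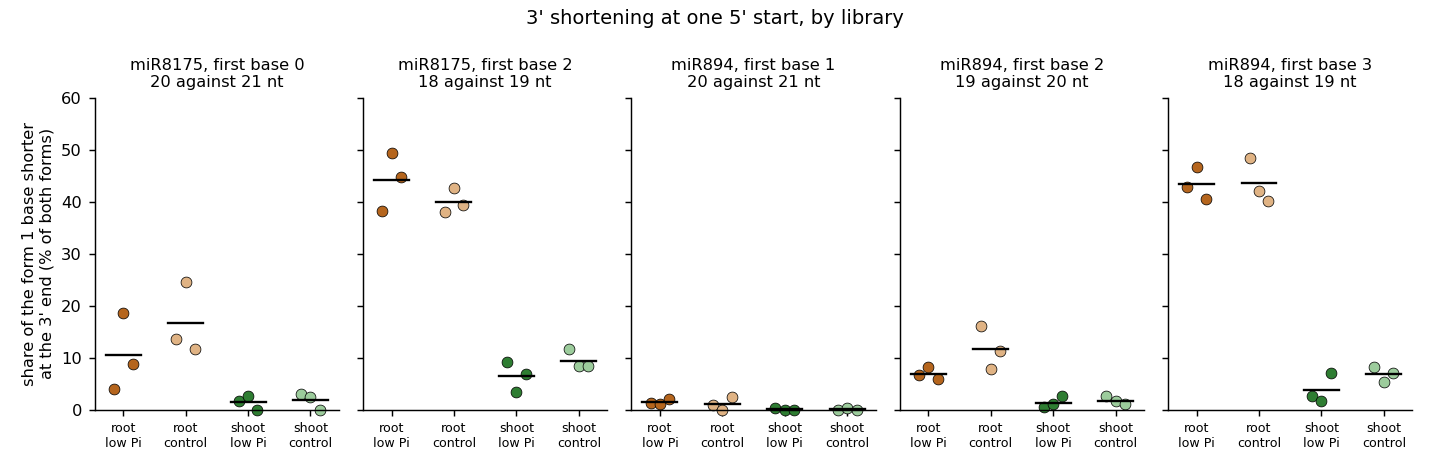
Share of the form that is 1 base shorter at the 3′ end, in percent of both forms (y axis), by organ and Pi group (x axis). Panels are the 5 pairs of miR8175 and miR894 whose longer form ends in CCA and that had at least 20 reads in each library. Points are libraries and bars the mean of 3. In the pairs of 18 against 19 nt the root libraries sit between 38.0% and 49.4% and the shoot libraries between 1.65% and 11.6%.

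Low Pi was compared with control within each organ, the comparison for which the plants were grown. In root 0 of the 4 families were called, by edgeR on library totals: miR8175 stood at log2 0.51 ± 0.27 (SE, adjusted p = 0.12), miR9777 at 0.55 ± 0.36 (adjusted p = 0.20), miR894 at -0.19 ± 0.27 (adjusted p = 0.53) and miR5368 at -0.71 ± 0.47 (adjusted p = 0.21). None of the 4 had an unadjusted p under 0.05. Of the 53 families tested in root, 7.55% were called higher and 30.2% lower, and the median family was at -0.42. miR8175 and miR9777 thus lay 0.93 and 0.98 above the median and miR894 0.23 above it, while miR5368 lay 0.28 below.

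The root calls changed with the scale, with the tool and with the omission of a single library. With TMM factors, which put the median at 0.25, miR8175 was called higher at 1.15 (adjusted p = 0.00034) and miR9777 at 1.19 (adjusted p = 0.003), and 24.5% of the families were called higher and 5.66% lower. Per miRBase read the values were 1.11 and 1.23, and with no scaling 1.35 and 1.37, called in each case. Low-Pi root libraries held 14999744 to 17614581 kept reads, and control root libraries 7470998 to 11434616. The values with no scaling include this difference in depth. DESeq2 called miR8175 alone (0.83, adjusted p = 0.025). Without root low-Pi replicate 5, the lowest low-Pi library for miR8175, edgeR on library totals called that family at 0.73 (adjusted p = 0.034). miR894 turned to 0.42 with TMM factors and was called under none of these settings.

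In shoot 0 of the 4 families were called. miR9777 stood at 0.86 ± 0.38 (SE, adjusted p = 0.23), miR8175 at 0.31 ± 0.35 (adjusted p = 0.67), miR894 at 0.12 ± 0.31 (adjusted p = 0.95) and miR5368 at -0.04 ± 0.35 (adjusted p = 0.96). Again none had an unadjusted p under 0.05, and that of miR9777 lay just above it. Of the 65 families tested, 4.62% were called higher and 0.0% lower, and the median was at 0.04. Without shoot low-Pi replicate 6 the values were 0.63 for miR8175, 0.41 for miR894 and 0.26 for miR5368, and no family was called.

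**Figure D4:**
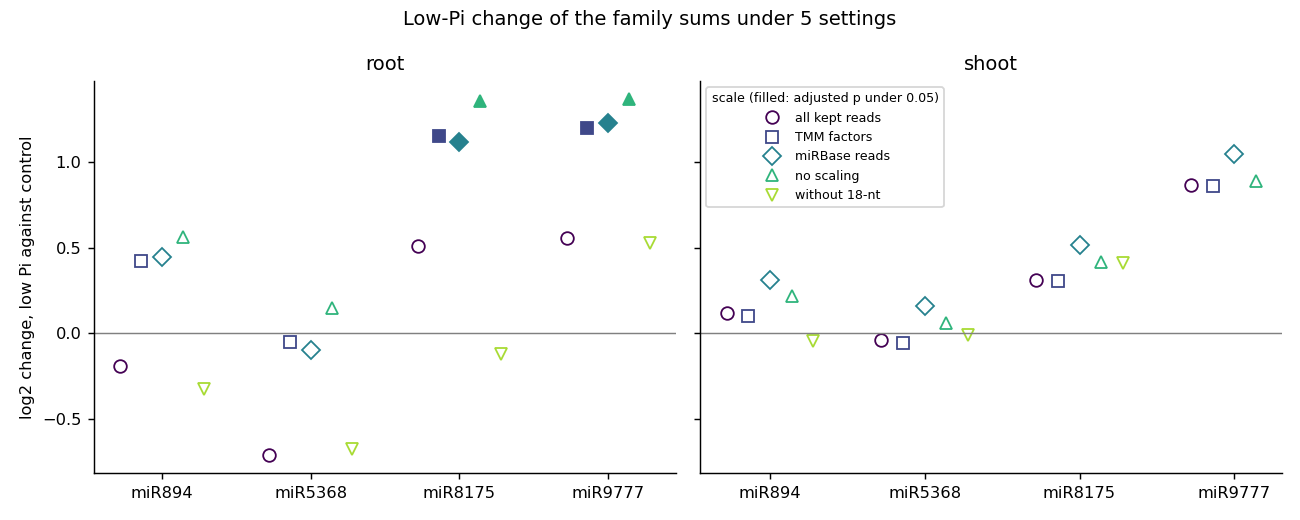
Log2 change of the family sums under low Pi against control (y axis) in root and shoot (panels) for 5 settings (symbols), filled where the adjusted p was under 0.05. In root miR8175 and miR9777 are filled at 1.11 to 1.37 with TMM factors, per miRBase read and with no scaling, and open at 0.51 and 0.55 on library totals. The miR8175 value without 18-nt sequences is -0.12. Root values with no scaling include the greater depth of the low-Pi libraries.

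Few single sequences were called. Of the 104 root members, 18 passed the count filter, and edgeR called 1 higher and 2 lower, against 5.26% and 30.9% of the 285 sequences tested. Each of the 3 calls ended when certain single libraries were left out. In shoot 0 of 21 members tested were called, against 9.30% and 1.24% of 484, with 3 at an unadjusted p under 0.05. Over all sequences tested in root, 6.67% lay higher under low Pi without overlap, and of the 18 members 1, of miR9777, did. In the lower direction it was 40.7% of all, and 2 of the 18 members, both of miR894. The 2 root sequences called lower are short-ended forms, but more abundant short-ended forms were not called by edgeR in root. Those were the miR894 form from base 3 ending in ACC (log2 -0.26, adjusted p = 0.54) and the miR8175 form from base 2 ending in GCC (0.55, adjusted p = 0.21). The 2 sequences called lower are printed with the last 3 bases in capitals.
miR894 from base 2, 19 nt: gtttcacgtcgggttcACC
miR8175 from base 1, 19 nt: gatccccggcaacggcGCC
The miR894 form had 1.53, 1.25 and 1.46 RPM in root under low Pi and 7.70, 1.98 and 3.48 RPM in root of controls, with no overlap (log2 -1.66 ± 0.45, SE, adjusted p = 0.011). Groups lay apart in this direction for 40.7% of the sequences tested. They also did for the miR894 form 1 base longer, which ends in CCA and was not called (log2 -0.63 ± 0.32, adjusted p = 0.12). Without control replicate 16, which had the highest value, the short-ended miR894 form was not called (-0.94, adjusted p = 0.071).

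The short-ended miR8175 form had 8.93, 5.22 and 11.9 RPM in root under low Pi and 17.8, 10.9997 and 24.5 RPM in root of controls, and the groups overlapped (log2 -1.04 ± 0.37, SE, adjusted p = 0.042). It was not called without any 1 of low-Pi replicates 4 and 5 and control replicates 16 and 18 (-1.06 to -0.74, adjusted p 0.059 to 0.17). The sequence called higher was the leading form of miR8175, from base 3 and 18 nt long. It had 225, 151 and 265 RPM in root under low Pi, against 90.2, 107 and 170 RPM in control, with overlap (log2 0.80 ± 0.30, adjusted p = 0.0497). This call ended without any 1 of low-Pi replicates 4 and 6 and control replicates 16 and 17 (0.62 to 0.76, adjusted p 0.12 to 0.17), with the edgeR exact test (adjusted p = 0.059) and with no count filter (adjusted p = 0.28). It was made at 1.40 to 1.66 with TMM factors, per miRBase read, with no scaling and with DESeq2. The 2 lower calls were not made under those 4 settings.

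Read lengths of miR8175 in root lay apart between the Pi groups, though the test of 3 against 3 libraries could not call any share. Sequences of 18 nt were 75.8%, 81.5% and 76.6% of the family in low-Pi root (78.0% ± 3.07, SD, n = 3) and 60.9%, 70.4% and 64.4% in control root (65.3% ± 4.83). The groups did not overlap, and the shares of 19, 20, 21 and 22 to 25 nt were all lower under low Pi without overlap. The exact permutation test of 3 against 3 libraries gave p = 0.1, the smallest it allows, and p = 0.44 after adjustment over the 48 length and match-type shares tested. An 18-nt share higher without overlap was found in 6.25% of 32 root families with at least 30 reads in each library, and in 2.13% of 47 shoot families. With the 18-nt sequences left out, the miR8175 sum stood at log2 -0.12 (adjusted p = 0.74). In the miRBase reads outside the 4 families, 18-nt sequences were 22.3% ± 2.0 in root under low Pi and 11.6% ± 1.8 in root of controls, and the part of this shift in the miR8175 value was not tested.

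Of all 48 shares, 11 did not overlap between the Pi groups, and the test could call none of the 48, as its smallest p is 0.1. Among them were the 8 classes of miR8175 in root, which are parts of the same total and so not independent. By length alone, 6 of 15 member shares in root and 2 of 15 in shoot did not overlap, against 22.5% of 160 shares over all root families and 13.6% of 235 over all shoot families. The other 3 were shares of 20-nt reads: miR8175 in shoot (5.22% ± 1.05 under low Pi and 3.51% ± 0.597 in control), miR5368 in shoot (12.6% ± 2.99 and 6.80% ± 0.501) and miR9777 in root (24.0% ± 4.06 and 13.3% ± 8.91). Over all families, a 20-nt share lay higher without overlap in 15.6% and lower in 15.6% of root families, and in 10.6% and 6.38% of shoot families. For miR9777 the difference of 10.7 percentage points was 5.53 without control replicate 17, which had 33 reads of the family. In miR894 no share lay apart in either organ, and its 18-nt share was 55.1% ± 1.85 and 50.5% ± 3.90 in root and 51.8% ± 9.68 and 48.9% ± 1.99 in shoot (low Pi and control).

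By match type, the authors' annotation put the base-4 form of miR894 under the precursor, so precursor matches were 30.5% ± 3.36 and 26.1% ± 4.93 of miR894 in root and 50.7% ± 10.6 and 46.9% ± 1.79 in shoot. In miR8175 precursor matches were 0.541% ± 0.0363 and 1.31% ± 0.806 in root and 27.2% ± 8.36 and 24.8% ± 4.87 in shoot. In miR9777 of root they were 92.2% ± 0.186 and 92.7% ± 9.62, and in miR5368 of shoot 42.0% ± 4.23 and 46.2% ± 9.18 (low Pi and control, SD, n = 3 each).

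The families most like each of the 4 over the 12 libraries were found by the root mean square difference of centred log2(RPM + 0.5) profiles among 58 families of at least 1 RPM. For miR894 they were miR171 (0.55), miR165 (0.59) and miR5072 (0.60), and for miR5368 miR408 (0.44), miR6201 (0.46) and miR4995 (0.47). For miR8175 they were miR5054 (0.45), miR9777 (0.46) and miR6195 (0.47), and for miR9777 miR9779 (0.30), miR6195 (0.34) and miR6198 (0.44). miR8175 and miR9777 were thus near each other, while miR894 ranked 12 in the order of each, and miR5368 ranked 56. These are descriptions, since all families share the libraries and their depth.

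Of 5 further families taken to resemble structural RNA or matched mainly as precursors (miR6300, miR1511, miR5072, miR5083 and miR9779), 2 were called higher in low-Pi root and 1 in low-Pi shoot. Over all families tested, 7.55% of 53 were called higher in root and 4.62% of 65 in shoot. The study had reported sequences of miR1511, miR5072, miR5083 and miR9779 as raised in low-Pi root of the same libraries. The root count is therefore not an independent result. Between organs, 3 of the 5 were called higher and 1 lower in root, in control and under low Pi alike. Over all 81 families, 24.7% were called higher and 66.7% lower in control, and 24.7% and 71.6% under low Pi. The interaction was called for 0 of 5, against 16.0% lower and 0.0% higher over all families. As with miR894, miR5368, miR8175 and miR9777, some members were higher in root and others in shoot.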

How the data were processed

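Per the study's methods, the authors used CLC Genomics Workbench to trim reads, to retain lengths of 18 to 25 nt and to collapse identical reads, and matched them to miRBase without mismatches. The deposited tables give, for each distinct sequence and library, the read count and the authors' normalized value, the RPM, or reads in 1000000 kept reads. Dividing count by RPM gave each library's total, 7470998 to 17614581 reads. A sequence absent from 1 organ's table was set to 0 there. Another 24 columns repeat expression values and were not used, and neither were the authors' own fold changes and p-values. The tables of changed sequences without a miRBase match were searched only for overlaps.

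Counts per sequence and sums per family were tested with edgeR 4.0.16 (quasi-likelihood, R 4.3.3) on the recovered totals with no further factor, after filterByExpr with a minimum count of 10, and p-values were adjusted by the Benjamini-Hochberg method over all features tested, with calls at 0.05. The scripts were tested on simulated data. Shares were compared by exact permutation with both sides counted. Floors of 3 reads cover counting error only. DESeq2 1.42.0, TMM factors, miRBase totals, no scaling, other filters, sums without 18-nt or precursor sequences and omissions of single libraries were tried. Named were the 4 families, the 4 most abundant sequences of a family, its mature sequence, members called under low Pi, the 3 nearest families and 5 further families; for miR5368 and miR9777 fewer sequences are printed. Members and lists were chosen with earlier results of these data known.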

Additional observations from a re-analysis of the deposited data

Results flagged for a closer look

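The share of 20-nt reads within miR8175 lay apart between the Pi groups in opposite directions in the organs. The test of 3 against 3 libraries could not call either difference. It was lower by 3.32 percentage points in root (-3.32, 3.03% ± 0.728 under low Pi and 6.35% ± 1.15 in control) and higher by 1.71 in shoot (5.22% ± 1.05 and 3.51% ± 0.597). The exact permutation p was 0.1 in each organ, the smallest that 3 against 3 libraries allow, and 0.44 after adjustment. A 20-nt share lay lower without overlap in 15.6% of root families and higher in 10.6% of shoot families. The difference between the organs was not tested.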

How the results depend on the processing

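Of 4 family sums, the count called under low Pi in root went from 0 to 2 with TMM factors, per miRBase read and with no scaling, and to 1 with DESeq2; leaving out single libraries gave 0 to 1. In shoot it was 0 throughout. Among single sequences the count in root went from 3 to 5 with no scaling and to 1 with no count filter (1 to 3 leaving out single libraries), and in shoot from 0 to 1 with the edgeR exact test and with DESeq2 (0 to 3 leaving out single libraries, 3 without low-Pi replicate 6). Between organs it went from 3 to 4 with TMM factors, per miRBase read and with DESeq2, and to 2 without precursor matches, where miR9777 was not tested (leaving out single libraries, 3 in control and 3 to 4 under low Pi); the interaction stayed at 0. The 11 shares without overlap became 10 with only sequences of at least 10 reads, and 11 to 19 leaving out single libraries (19 without root control replicate 17 or shoot low-Pi replicate 6). Values that changed sign were uncalled except where said. miR894 in root turned to 0.42 (TMM), 0.45 (per miRBase read), 0.56 (no scaling) and 0.071 (DESeq2), with -0.32 to 0.0089 leaving out single libraries. miR894 in shoot was -0.043 without 18-nt sequences and -0.072 without precursor matches (-0.086 to 0.41 leaving out single libraries). miR5368 was 0.15 in root with no scaling, and in shoot 0.16 per miRBase read, 0.059 with no scaling and 0.10 without precursor matches (-0.23 to 0.26). miR8175 in root was -0.12 without 18-nt sequences. Root minus shoot for miR894 in control and low Pi was 1.43 and 1.93 (TMM), 1.71 and 1.84 (per miRBase read), 2.05 and 2.21 (DESeq2), all called, and 0.40 and 0.18 without precursor matches, with -0.28 to 0.044 in control and -0.68 to -0.19 under low Pi leaving out single libraries. The cause was not tested, and root values with no scaling include the greater depth of the low-Pi libraries. TMM and the other scalings also turned the split of all families in root from 4 higher and 16 lower to 13 and 3 (TMM), 11 and 4 (per miRBase read), 18 and 2 (no scaling) and 6 and 6 (DESeq2), and between organs in control from 20 and 54 to 26 and 30 (TMM), 41 and 19 (per miRBase read) and 30 and 17 (DESeq2), and under low Pi from 20 and 58 to 27 and 29, 39 and 28, and 28 and 24. Single sequences in root went from 15 and 88 to 27 and 19 (TMM), 26 and 16 (per miRBase read), 34 and 5 (no scaling) and 25 and 17 (DESeq2).

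Root and shoot libraries share replicate numbers. Deviations of same-numbered libraries correlated at 0.30, 0.16 and -0.34 under low Pi and -0.12, 0.43 and -0.30 in control over 39 families. Libraries with different numbers ran from -0.46 to 0.47. With 3 libraries per group these values cannot decide whether a number marks the same pot in both organs. The main fit did not take the numbers as pairs, and a fit with a replicate block is given beside it. With the replicate block the calls were 3, 3 and 0 of 4 (control, low Pi, interaction), and root minus shoot was -4.96 and -5.53 for miR5368, 2.24 and 2.54 for miR8175, 3.34 and 3.11 for miR9777 and -0.10 and -0.32 for miR894. Joint names were not run because no sequence carried one, and DESeq2 gave no adjusted p for miR9777 in shoot. Counts of 63 and 76 reads limit miR9777 in shoot and miR5368 in root.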
